A study of Mus musculus with 16 samples.

Results

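The genes described here are a fixed set of 32 erythroid and heme synthesis genes, which encode globin chains, red cell membrane and blood group proteins, erythroid transcription factors, the erythropoietin and transferrin receptors, the enzymes of heme synthesis and abundant red cell enzymes. They were chosen by name, and their values were looked up in each of the 3 tables of the series. Of the 32 genes, 31 were found among the 38926 gene names of the table of mpECs and bmECs, the 38926 of the Lats2 table and the 21603 gene identifiers of the Yap1/Taz files. Ahsp, the gene of the alpha globin chaperone, was not analysed here. Epb42 is listed as Epb4.2 in the tables that give names.

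The libraries come from endothelial cells (ECs) of long bone, sorted by flow cytometry from C57BL/6 mice. Each gene is given in FPKM, fragments per kilobase of its exons, in values already scaled between libraries. In the first comparison, 3 libraries of metaphyseal ECs (mpECs) stand against 3 of marrow ECs of the diaphysis (bmECs), sorted from 3-week-old wild-type mice with the Cdh5-mTnG reporter, which marks endothelial membranes and nuclei. In the second, 3 libraries labelled Yap1/Taz iΔEC come from mice with loxP-flanked Yap1 and Wwtr1 alleles and Cdh5-CreERT2, a tamoxifen-activated Cre recombinase under an endothelial promoter, at postnatal day 21. Their 3 control libraries come from littermates with the same floxed alleles and no Cre. In the third, 2 Lats2 iΔEC libraries carry floxed Lats2 alleles and Cdh5-CreERT2, and the 2 controls carry the floxed alleles without Cre. Per the study's methods, the Lats2 mice were also 3 weeks old. The labels do not say whether each library is 1 animal or a pool, so a p-value weighs a group difference against the spread between these libraries. In the tests of single genes that spread is moderated with values from all genes tested.

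Reads recovered from the FPKM values numbered 11114337 to 14750198 per library for mpECs and bmECs, 4884877 to 7155089 for Yap1/Taz and 4730434 to 7068507 for Lats2. The targeted genes were checked first. Wwtr1, which encodes Taz, was at 10.01, 9.88 and 10.3 FPKM in the Yap1/Taz controls and 15.3, 19.6 and 19.5 FPKM in the libraries labelled Yap1/Taz iΔEC, so it was higher where the label names its deletion (adjusted p = 0.0272, log2 fold change 0.78 ± 0.12 SE). Yap1 overlapped between the groups, at 1.07, 1.62 and 0.995 against 1.43, 1.03 and 0.989 FPKM. Lats2 was at 23.4 and 24.03 FPKM in the Lats2 controls and 19.2 and 19.2 FPKM in Lats2 iΔEC (adjusted p = 0.125, log2 fold change -0.29 ± 0.11 SE). On the same strand, Gm49361 covers 42.4% of the exon bases of Lats2. By quantitative PCR on isolated mutant bone ECs, the study itself reports significantly less Yap1 and Wwtr1 transcript. It also reports weaker endothelial Yap1 staining in those mutants and significantly less Lats2 transcript in ECs of the Lats2 mutants. For the endothelial label, 10 marker genes were taken, among them Pecam1 and Cdh5. Their summed level was 1612 to 1989 FPKM in mpECs and 617 to 656 FPKM in the Yap1/Taz controls. In the Lats2 controls it was 2718 to 2943 FPKM. Neutrophil markers summed to 11642 to 27821 FPKM in mpECs. They summed to 2086 to 2738 FPKM in the Yap1/Taz controls and 1956 to 2925 FPKM in the Lats2 controls.

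Red blood cells form in the marrow from progenitors that respond to erythropoietin. As these cells mature, the factors Gata1 and Klf1 switch on globin genes, heme enzymes and a membrane skeleton of spectrin, ankyrin and band 3. Heme is built by a chain of enzymes that begins and ends in the mitochondrion, and it needs iron that the transferrin receptor takes up and mitoferrin carries across the inner membrane. Red cell precursors use their own form of the first enzyme, Alas2, and make heme for hemoglobin, while most other cells make it in small amounts for their own enzymes with the same later enzymes. Red cell precursors lie close to the sinusoids of bone marrow, through whose walls young red cells enter the blood.

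Promoter sequence from RefSeq (GRCm38.p6) was on hand for 25 of the 32 genes, with 29 start sites, and the 250 bases before each start were searched. The GATA words, which GATA factors recognise, were AGATAA, its variant AGATAG, the word TGATAA and also its variant TGATAG. The CACCC-type word, which Klf1 recognises, was CCNCNCCC. Each was searched on both strands. A gene of each role is shown, from Hbb-bs to Prdx2. GATA words and CCNCNCCC words are in capitals, and words that overlap run together.
Hbb-bs, chr7:103827929-103828178, minus strand: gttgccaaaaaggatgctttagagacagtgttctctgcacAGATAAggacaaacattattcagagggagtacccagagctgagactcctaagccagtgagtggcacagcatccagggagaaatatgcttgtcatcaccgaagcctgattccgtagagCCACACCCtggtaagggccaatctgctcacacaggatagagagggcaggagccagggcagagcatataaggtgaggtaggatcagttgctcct
Epb42, chr2:121036878-121037127, minus strand: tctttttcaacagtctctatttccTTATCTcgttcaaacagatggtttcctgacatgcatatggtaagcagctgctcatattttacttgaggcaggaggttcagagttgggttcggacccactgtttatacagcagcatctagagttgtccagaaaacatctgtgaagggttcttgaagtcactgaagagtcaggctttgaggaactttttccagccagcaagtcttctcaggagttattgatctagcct
Klf1, chr8:84901732-84901981, plus strand: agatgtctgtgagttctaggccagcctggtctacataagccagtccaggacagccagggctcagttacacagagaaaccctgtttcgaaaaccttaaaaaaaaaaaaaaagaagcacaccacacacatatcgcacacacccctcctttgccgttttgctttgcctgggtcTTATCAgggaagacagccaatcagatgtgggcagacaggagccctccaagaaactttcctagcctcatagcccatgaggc
Epor, chr9:21963577-21963826, minus strand: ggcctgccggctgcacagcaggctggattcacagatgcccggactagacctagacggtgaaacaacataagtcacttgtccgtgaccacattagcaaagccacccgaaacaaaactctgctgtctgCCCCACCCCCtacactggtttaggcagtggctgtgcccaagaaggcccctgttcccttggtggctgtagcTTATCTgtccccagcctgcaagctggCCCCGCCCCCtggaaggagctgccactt
Alas2, chrX:150547167-150547416, plus strand: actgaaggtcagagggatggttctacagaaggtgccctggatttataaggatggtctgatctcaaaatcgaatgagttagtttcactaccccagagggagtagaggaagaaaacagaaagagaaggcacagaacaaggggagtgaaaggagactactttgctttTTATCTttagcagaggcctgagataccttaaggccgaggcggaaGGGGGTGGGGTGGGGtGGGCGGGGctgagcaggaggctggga
Prdx2, chr8:84969372-84969621, plus strand: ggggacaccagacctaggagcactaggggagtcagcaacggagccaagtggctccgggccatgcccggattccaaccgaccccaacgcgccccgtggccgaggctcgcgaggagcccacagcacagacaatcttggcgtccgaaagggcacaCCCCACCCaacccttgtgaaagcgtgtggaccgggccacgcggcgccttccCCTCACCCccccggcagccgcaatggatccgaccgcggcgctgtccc

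Each of these promoters except that of Prdx2 held 1 GATA word. In Klf1, Epor and Alas2 it lay on the opposite strand, starting 80, 54 and 86 bases before the start site. In Epb42 it also lay on the opposite strand, 226 bases before the start. In Hbb-bs it lay on the gene's own strand 210 bases before the start, and CCACACCC followed 93 bases before the start. Epor and Alas2 held 4 overlapping or neighboring CCNCNCCC words each, Prdx2 held 2 and Epb42 and Klf1 held none in this window. Over all promoters of the set, 17 of 29 (58.6%) held a GATA word, against 26.5% of the 32851 promoters in the table. Gata1, Tfrc, Alad, Urod, Sptb and Hbb-bt, which are not shown, held no GATA word. Both Lats2 iΔEC libraries lay below both controls in these genes, and not in Ppox, which also held no GATA word. A CCNCNCCC word was in 15 of 29 (51.7%), against 45.9% of all promoters. The start sites are those of RefSeq, and every GENCODE model of the 6 genes except that of Epor begins inside the window shown. A match is a description of letters in a window and not of binding.

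Erythroid transcripts were found in every library. The tables were scaled separately, so levels are set side by side across them and not tested. The 31 genes together held 11.8, 7.25 and 8.27% of all FPKM in the mpEC libraries and 12.3, 11.7 and 9.98% in the bmEC libraries. In the Yap1/Taz files the share was 2.02, 1.83 and 2.14% in controls and 2.56, 1.64 and 1.85% in the libraries labelled Yap1/Taz iΔEC. In the Lats2 table it was 1.27 and 0.914% in controls and 0.447 and 0.1102% in Lats2 iΔEC. Globin chains made up most of the summed level everywhere except in Lats2 iΔEC replicate 2, where the 4 globin genes summed to 236.8 FPKM and the other 27 genes to 253.5 FPKM.

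Single libraries stood apart within the groups. In mpECs, replicate 1 was the highest of its group for 27 of the 31 genes and replicate 2 the lowest for 27. Yap1/Taz iΔEC replicate 1 was the highest of its group for all 31 genes. Lats2 iΔEC replicate 2 was the lower of its pair for 29 of 31. The counts of called genes with and without these libraries are given with each comparison.

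Erythroid genes fell in Lats2 iΔEC, with called genes in every role except the globin chains. Of the 30 genes whose mean reached 1 FPKM, 20 were lower in Lats2 iΔEC at an adjusted p-value under 0.05 in limma's test of log2(FPKM + 1) and 0 were higher (0 at an unadjusted p under 0.05, 0 with limma-voom). Over all 12453 genes tested, 9.98% were called lower and 11.8% higher. The median log2 fold change of the 30 genes was -2.02, and that of all genes was -0.0033. In 28 of the 30 both Lats2 iΔEC libraries were below both controls, as were 34.2% of all genes tested. The median of all genes was -0.26 after scaling to the FPKM of all other genes and -0.14 with voom, and the calls over all genes then changed from 1468 higher and 1243 lower to 805 and 1836 or to 1275 and 2039. The calls rest on both control libraries, since without either of them no gene of the table passed the threshold, while 20 members (without replicate 1) and 19 members (without replicate 2) were lower at an unadjusted p under 0.05. Without Lats2 iΔEC replicate 1, 23 members were called lower, and without replicate 2, 17.

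**Figure D1:**
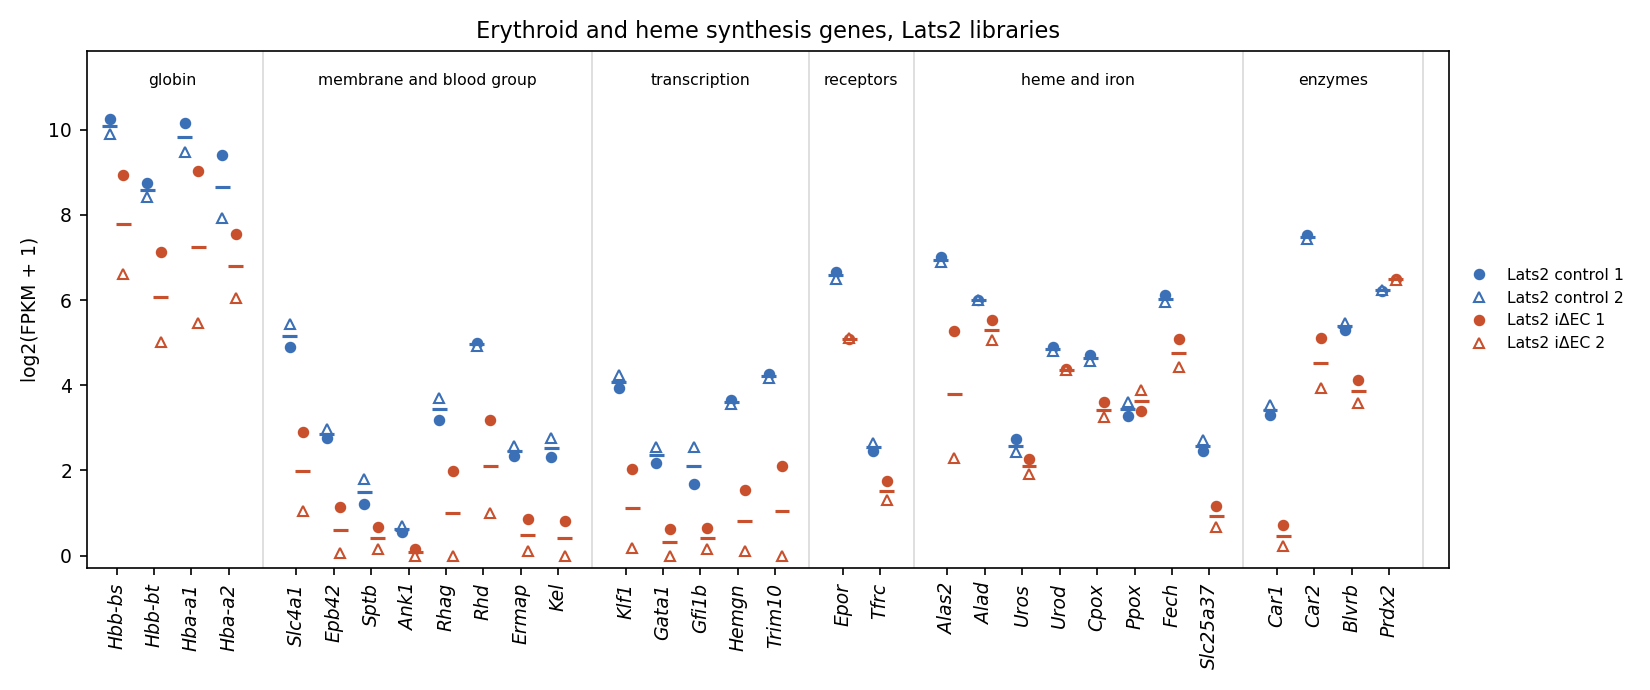
Level of each erythroid and heme synthesis gene, as log2(FPKM + 1) on the vertical axis, in the 2 Lats2 control libraries (blue) and the 2 Lats2 iΔEC libraries (red), with genes ordered by role and a bar at each group's mean. Filled circles are replicate 1 and open triangles replicate 2. For 29 of the 31 genes replicate 2 is the lower of the Lats2 iΔEC libraries, and Ppox and Prdx2 are the genes whose Lats2 iΔEC libraries do not lie below both controls.

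The globin genes had the highest levels of the set and were all lower in both Lats2 iΔEC libraries, but none of the 4 passed the threshold. Hbb-bs, an adult beta globin gene on chromosome 7 from 103826534 to 103828096 (GRCm38), was at 1224 and 955 FPKM in controls and 494 and 97.3 FPKM in Lats2 iΔEC (adjusted p = 0.0817, log2 fold change -2.30 ± 0.74 SE). Hba-a1, an alpha globin gene located at chromosome 11 from 32283511 to 32284465, stood at 1153 and 712 FPKM in controls and 524 and 43.04 FPKM in Lats2 iΔEC (adjusted p = 0.161, log2 fold change -2.58 ± 1.13 SE). In both genes replicate 2 of Lats2 iΔEC lay several times below replicate 1, so that the spread within the pair was as wide as the difference between groups in Hbb-bs and wider in Hba-a1. The log2 fold changes of Hbb-bt and Hba-a2 were -2.51 (adjusted p = 0.0528) and -1.88 (adjusted p = 0.102). At an unadjusted p under 0.05, 3 of the 4 genes were lower, and limma-voom on recovered reads called 3. The members of each globin pair are near copies. Of the 50-base windows of the Hba-a1 transcript 67.5% also occur in Hba-a2, and of those of Hbb-bs 65.8% occur in Hbb-bt, so the division of reads within a pair is uncertain.

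Red cell membrane genes fell in Lats2 iΔEC, with 5 of 7 tested genes called lower. Slc4a1, which encodes the anion exchanger band 3, is on chromosome 11 from 102348824 to 102366203 and was at 28.8 and 42.2 FPKM in controls and 6.501 and 1.07 FPKM in Lats2 iΔEC (adjusted p = 0.0244, log2 fold change -3.19 ± 0.61 SE). Its log2 fold change was the lowest of the 30 genes. Epb42, the gene of protein 4.2, which ties band 3 to the skeleton, fell from 5.75 and 6.86 FPKM to 1.22 and 0.0371 FPKM (adjusted p = 0.0197, log2 fold change -2.26 ± 0.39 SE). The last value corresponds to 1 read, where the controls held 155 and 221 reads. Kel, the gene of the Kell blood group protein, was at 3.99 and 5.76 FPKM in controls, 0.764 FPKM in Lats2 iΔEC replicate 1 and listed at 0 in replicate 2 (adjusted p = 0.0177, log2 fold change -2.13 ± 0.35 SE). Rhd and Ermap, which encode the carriers of the Rh and Scianna blood group antigens, had log2 fold changes of -2.87 (adjusted p = 0.0403) and -1.98 (adjusted p = 0.0164). The remaining genes of this role were lower in each Lats2 iΔEC library without passing the threshold or the filter. Rhag, which encodes the Rh-associated glycoprotein, was at 8.08 and 11.9 FPKM in controls and 2.95 and 0 FPKM in Lats2 iΔEC (adjusted p = 0.0524, log2 fold change -2.45 ± 0.65 SE). Sptb, the beta spectrin gene, had -1.09 (adjusted p = 0.0749). Ank1, the ankyrin gene, was under the filter at 0.475 and 0.609 FPKM in controls and 0.118 and 0 FPKM in Lats2 iΔEC.

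All 5 transcription factor and nuclear protein genes fell in Lats2 iΔEC. Klf1, which encodes the main activator of the adult beta globin gene, is on chromosome 8 from 84901928 to 84905291 and was at 14.3 and 17.9 FPKM in controls and 3.11 and 0.131 FPKM in Lats2 iΔEC (adjusted p = 0.0274, log2 fold change -2.98 ± 0.60 SE). In reads, this is 109 and 162 against 18 and 1. Gata1, which red cell precursors share with megakaryocytes and mast cells, went from 3.54 and 4.83 FPKM to 0.543 FPKM in replicate 1 and was listed at 0 in replicate 2 (adjusted p = 0.015, log2 fold change -2.05 ± 0.31 SE). Trim10, a tripartite motif gene of late red cell precursors, went from 18.1 and 16.9 FPKM to 3.32 FPKM and 0 (adjusted p = 0.0304, log2 fold change -3.16 ± 0.67 SE). Hemgn, which encodes the nuclear protein hemogen, and Gfi1b, a repressor shared with megakaryocytes, had log2 fold changes of -2.78 (adjusted p = 0.0187) and -1.71 (adjusted p = 0.0339). In none of these genes did the groups overlap.

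Both receptor genes fell. Epor, the erythropoietin receptor gene on chromosome 9 from 21958897 to 21963506, which endothelial cells also transcribe, was at 100.3 and 89.5 FPKM in controls and 32.7 and 33.6 FPKM in Lats2 iΔEC (adjusted p = 0.0073, log2 fold change -1.49 ± 0.12 SE). The libraries within each group lay close together, and both Lats2 iΔEC libraries were below both controls. Tfrc, the transferrin receptor gene, which dividing cells of many types use for iron uptake, was at 4.52 and 5.27 FPKM in controls and 2.36 and 1.46 FPKM in Lats2 iΔEC (adjusted p = 0.0317, log2 fold change -1.03 ± 0.22 SE).

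In heme synthesis, 5 of the 8 genes were called lower, with log2 fold changes from -0.49 (Urod) to -1.66 (Slc25a37). Alas2 and Uros were also lower in both Lats2 iΔEC libraries without passing the threshold. Alas2, the erythroid enzyme that starts the pathway, is on chromosome X from 150547375 to 150570638 and was at 128 and 118 FPKM in controls and 37.6 and 3.93 FPKM in Lats2 iΔEC (adjusted p = 0.0649, log2 fold change -3.16 ± 0.92 SE). The gap within the Lats2 iΔEC pair was wide and the call did not pass, with 5 of 13 alternatives under the threshold. Of the exon bases of Alas2, 15.5% overlap Apex2 on the other strand. Cpox, coproporphyrinogen oxidase, was at 25.1 and 22.9 FPKM in controls and 11.2 and 8.51 FPKM in Lats2 iΔEC (adjusted p = 0.0132, log2 fold change -1.21 ± 0.17 SE). Fech, the ferrochelatase gene, whose product places iron in the finished ring, was at 68.1 and 61.1 FPKM in controls and 32.8 and 20.6 FPKM in Lats2 iΔEC (adjusted p = 0.0218, log2 fold change -1.28 ± 0.23 SE). Slc25a37, the gene of the mitochondrial iron carrier mitoferrin, was at 4.47 and 5.53 FPKM in controls and 1.23 and 0.601 FPKM in Lats2 iΔEC (adjusted p = 0.015, log2 fold change -1.66 ± 0.25 SE). Earlier in the pathway, Alad, which joins the first intermediates, and Urod, which trims the side chains of the ring, had log2 fold changes of -0.70 (adjusted p = 0.0472) and -0.49 (adjusted p = 0.039). Uros, which closes the ring, was at 5.62 and 4.42 FPKM in controls and 3.85 and 2.75 FPKM in Lats2 iΔEC (adjusted p = 0.154, log2 fold change -0.49 ± 0.21 SE). Ppox, the enzyme before Fech, was at 8.72 and 11.2 FPKM in controls and 9.45 and 13.7 FPKM in Lats2 iΔEC, and its groups overlapped (adjusted p = 0.564, log2 fold change 0.19 ± 0.22 SE, 95% confidence interval -0.37 to 0.75). Its sign turned to -0.074 when the libraries were scaled to all other genes, and 17.5% of its exon bases overlap B4galt3 on the other strand.

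Of the cytosolic enzymes, 3 of 4 fell. Car1, a carbonic anhydrase gene expressed in the red cell line, was at 8.86 and 10.6 FPKM in controls and 0.637 and 0.161 FPKM in Lats2 iΔEC (adjusted p = 0.0073, log2 fold change -2.96 ± 0.24 SE), that is 55 and 79 reads against 3 and 1. Car2, a carbonic anhydrase that osteoclasts also make, was at 185 and 171 FPKM in controls and 33.6 and 14.4 FPKM in Lats2 iΔEC (adjusted p = 0.0118, log2 fold change -2.95 ± 0.38 SE). Blvrb, biliverdin reductase B, was at 38.5 and 43.04 FPKM in controls and 16.5 and 11.1 FPKM in Lats2 iΔEC (adjusted p = 0.0129, log2 fold change -1.52 ± 0.20 SE). Prdx2, the peroxiredoxin that protects hemoglobin from oxidation and is made in most cells, was at 73.5 and 75.1 FPKM in controls and 89.04 and 88.1 FPKM in Lats2 iΔEC. Its log2 fold change of 0.25 (adjusted p = 0.156, 95% confidence interval -0.024 to 0.53) did not pass the threshold and was -0.029 with libraries scaled to all other genes. Of its exon bases, 11.5% overlap Rnaseh2a or Junb on the other strand.

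The 31 genes split by how unlike the Lats2 iΔEC libraries were. In controls no gene was more than 3 times higher in one library than in the other, and the widest ratio was 2.83, in Hba-a2. In Lats2 iΔEC, 13 genes were more than 3 times higher in replicate 1 than in replicate 2 and 5 more were listed at 0 in replicate 2. The widest measurable ratio was 33.0, in Epb42, and it rests on 25 reads against 1. Several other wide ratios also rest on few reads in replicate 2 and are imprecise. Klf1 and Hemgn had 18 reads against 1, Gfi1b had 4 against 1 and Car1 had 3 against 1. Other genes had more, such as Hbb-bs with 1430 against 372 and Alas2 with 341 against 47. How far the split follows read depth was not tested. The other 13 genes were within 3 times of each other, and they were Hba-a2, Epor, Tfrc, Car2, Blvrb, Prdx2 and every heme synthesis gene except Alas2. This limit of 3 times was set after the values were seen, and Hba-a2, at 2.85, lay just under it.

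**Figure D2:**
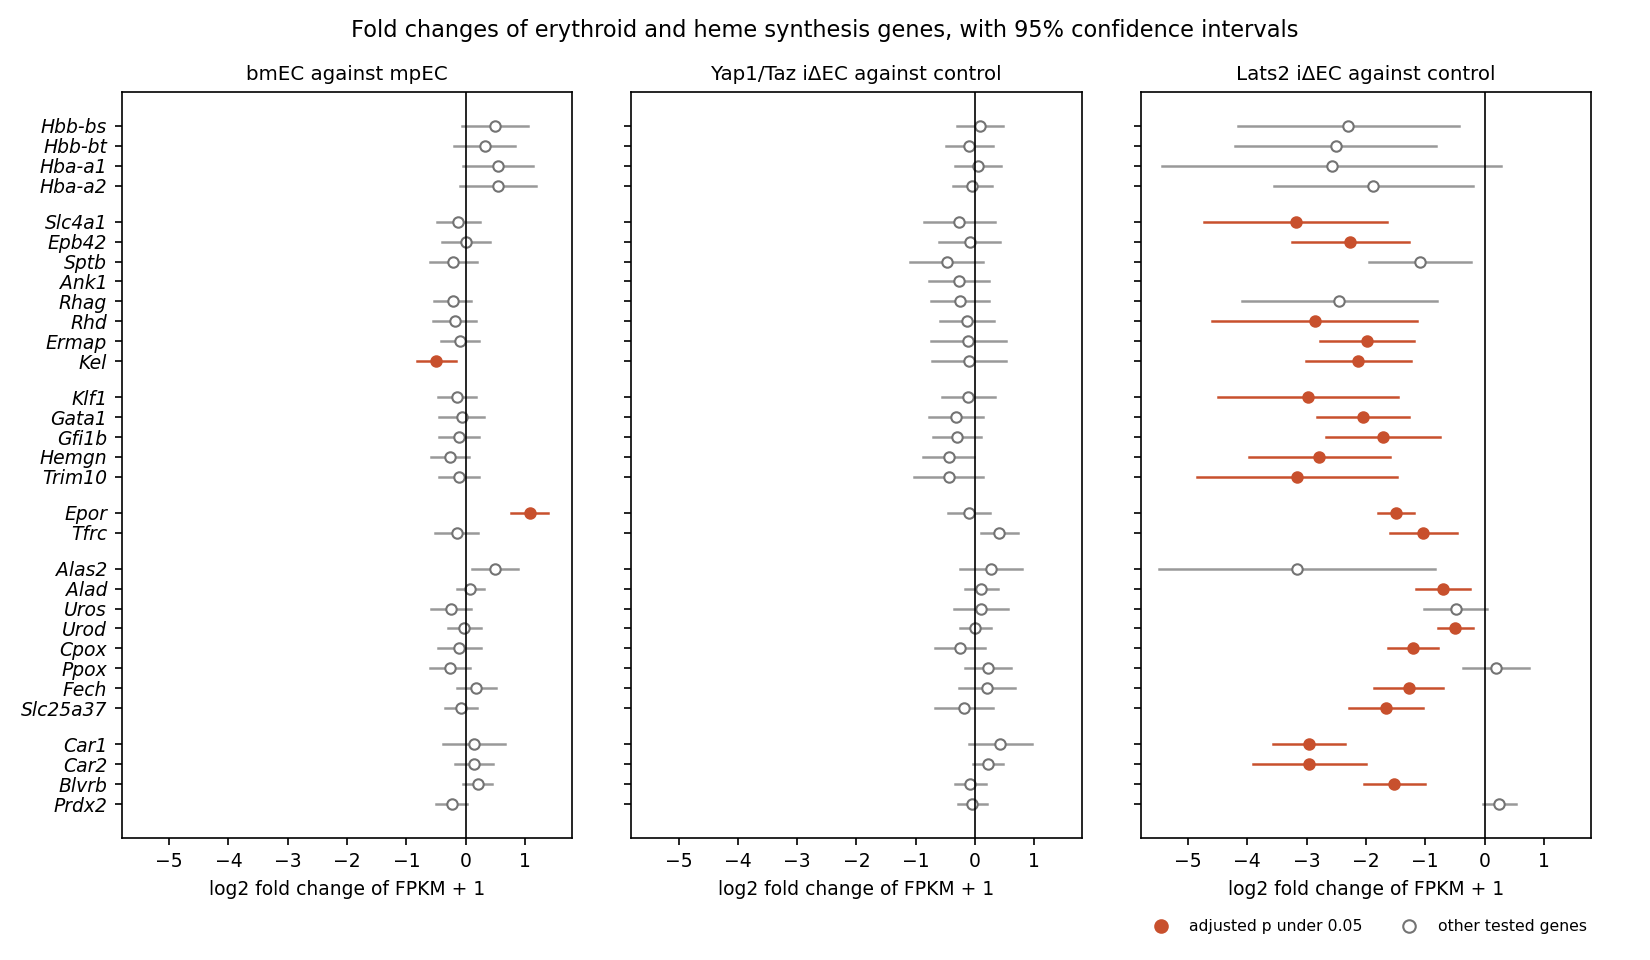
Log2 fold change of FPKM + 1 (horizontal axis) of each tested erythroid and heme synthesis gene in the 3 comparisons, with its 95% confidence interval from limma, genes ordered by role. Filled red points have an adjusted p under 0.05. In the Lats2 panel 28 of 30 points lie below 0 and 20 are filled, in the bmEC panel Epor and Kel are filled, and in the Yap1/Taz panel no point is.

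Summed over the 31 genes, the level was 4363 and 3118 FPKM in the Lats2 controls and 1709 and 490.3 FPKM in Lats2 iΔEC. The groups did not overlap, and the two-sided exact permutation p of 0.333 is the smallest that 2 libraries against 2 allow (0.50 after adjustment over the 3 comparisons). The globin genes went from 3488 and 2252 to 1343 and 237 FPKM and the other 27 genes from 876 and 867 to 366 and 254 FPKM. In bulk libraries, fewer cells of a type and less RNA per cell cannot be told apart.

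Neutrophil, B cell and megakaryocyte marker sums were also lower in Lats2 iΔEC, while the macrophage and mast cell lists were mixed. Of the 8 neutrophil markers, among them Ngp and S100a8, 6 were lower in Lats2 iΔEC, and their summed level was 1956 to 2925 FPKM in controls and 717 to 855 FPKM in Lats2 iΔEC. All 7 tested B cell markers of the 8 listed, such as Cd79a, were lower, with 102 to 124 FPKM against 22.99 to 33.2 FPKM. The 8 megakaryocyte and platelet markers summed to 30.1 to 121 FPKM in controls and 9.72 to 12.4 FPKM in Lats2 iΔEC, and 1 of 7 tested was lower (Pf4). Macrophage markers summed to 547 to 659.7 FPKM in controls and 83.6 to 318 FPKM in Lats2 iΔEC, with 1 of 7 tested lower (Mrc1) and a median log2 fold change of 0.35, and those of blood progenitors and leukocytes to 93.5 to 102 FPKM in controls and 54.4 to 77.2 FPKM in Lats2 iΔEC, with 3 of 6 lower and 1 higher. The 10 endothelial markers summed to 2718 to 2943 FPKM in controls and 2325 to 2570.3 FPKM in Lats2 iΔEC, with 1 higher (Pecam1) and 2 lower (Kdr and Tek). The 4 osteoclast markers summed to 28.8 to 34.3 FPKM in controls and 32.8 to 57.1 FPKM in Lats2 iΔEC, with 1 of 3 tested higher (Ctsk), and proliferation genes to 86.3 to 90.2 FPKM in controls and 116 to 152 FPKM in Lats2 iΔEC, with 3 of 8 higher. Of marrow stromal markers 3 of 6 were higher (Cxcl12, Rgs5 and Kitl), of osteoblast markers 1 of 5 (Spp1), and of mast cell markers 1 of 2 was lower (Mcpt8). The osteoblast sums overlapped, at 12.8 to 65.7 FPKM in controls and 41.3 to 66.8 FPKM in Lats2 iΔEC, with a median log2 fold change of -0.34. The mast cell sums also overlapped, at 2.41 to 5.13 FPKM in controls and 0 to 11.9 FPKM in Lats2 iΔEC. No marker of these lists was at 0 in every library. The part of other blood cells in the fall of the erythroid genes was not tested.

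**Figure D3:**
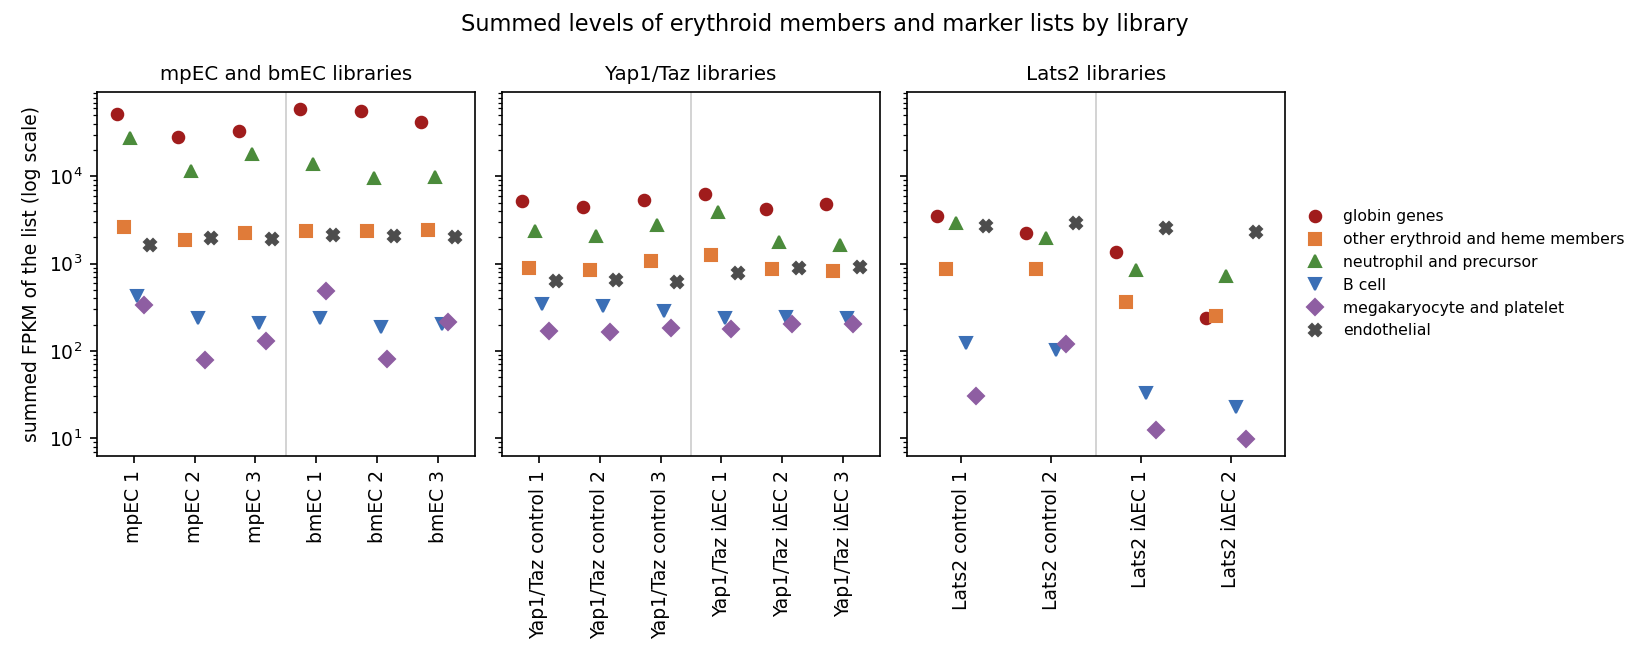
Summed FPKM on a log scale (vertical axis) of the 4 globin genes, the other 27 erythroid and heme synthesis genes, and 4 marker lists, in each of the 16 libraries (horizontal axis), with 1 panel per comparison and a line between its groups. In the Lats2 panel the globin, erythroid, neutrophil, B cell and megakaryocyte points of both Lats2 iΔEC libraries lie below those of both controls, and the endothelial points range from 2325 to 2943 FPKM.

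Further genes of the same pathways were also lower in Lats2 iΔEC. Of 40 other erythroid genes, 30 were tested, 16 were lower and 0 higher (3 at an unadjusted p under 0.05, 0 with limma-voom), with a median log2 fold change of -1.13. Their summed level, 1492 to 1621 FPKM in controls and 1549 to 1605 FPKM in Lats2 iΔEC, overlapped. The genes named are among the 4 called with the largest change. Cldn13, a claudin gene, fell from 11.7 ± 3.74 FPKM (mean ± SD, 2 libraries) to 1.24 ± 1.76 FPKM (adjusted p = 0.0338, log2 fold change -2.73 ± 0.61 SE). Fam46c and Bpgm, the gene of the mutase that makes the hemoglobin effector bisphosphoglycerate, had log2 fold changes of -1.94 (adjusted p = 0.0182) and -1.93 (adjusted p = 0.0237). Of 27 other heme and iron genes, 26 were tested, 7 were lower and 1 higher, with a median of -0.26. Steap3, the ferrireductase of the transferrin cycle, went from 9.798 ± 0.329 FPKM (mean ± SD, 2 libraries) to 1.64 ± 0.218 FPKM (adjusted p = 0.00705, log2 fold change -2.04 ± 0.16 SE). Abcb10, a mitochondrial transporter that holds mitoferrin in place, had a log2 fold change of -1.03 (adjusted p = 0.019). Clpx, the chaperone that activates the first enzyme, had -0.81 (adjusted p = 0.0214). The gene that rose was Tmem14c, a mitochondrial porphyrin carrier named after its value was seen (0.74, adjusted p = 0.0157).

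Between mpECs and bmECs, Epor rose and Kel fell. In bmECs 1 of the 30 genes was called higher and 1 lower, at an adjusted p under 0.05, against 13% and 10.5% of the 11422 genes tested, and 2 were higher and 1 lower at an unadjusted p under 0.05. The median log2 fold change was -0.085, with 12 positive and 18 negative values, and that of all genes was -0.00068. The median of all genes was -0.11 after scaling to all other genes and -0.19 with voom, and the calls over all genes changed from 1481 higher and 1201 lower to 1060 and 1845 or to 893 and 2401. Libraries mpEC replicates 1 and 2 weigh on these values in opposite directions. Without replicate 1, 6 genes were higher, namely Epor, Alas2 and the 4 globin genes, 0 were lower (1 at an unadjusted p under 0.05), and the median was 0.048. Without replicate 2, 1 gene was higher and 0 lower (1 higher and 7 lower at an unadjusted p under 0.05), and the median was -0.19, with 20 of 30 values negative.

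**Figure D4:**
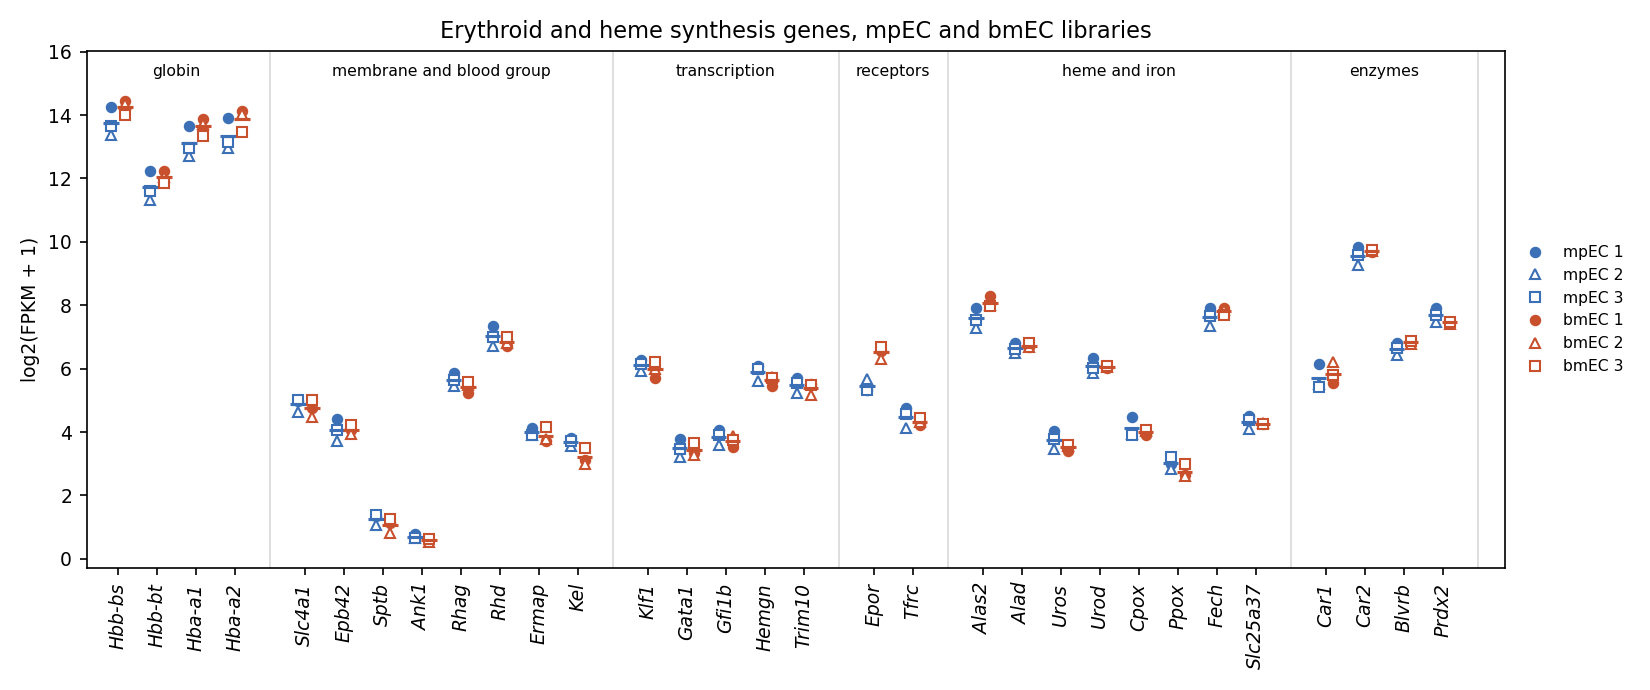
Level of each erythroid and heme synthesis gene, as log2(FPKM + 1) on the vertical axis, in the 3 mpEC libraries (blue) and the 3 bmEC libraries (red), with genes ordered by role and a bar at each group's mean. Circles, triangles and squares are replicates 1, 2 and 3. The groups lie over each other for most genes, and Epor is the gene whose bmEC libraries lie farthest above its mpEC libraries.

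Epor was at 38.8, 49.98 and 39.5 FPKM in the mpEC libraries and 93.5, 78.2 and 102 FPKM in the bmEC libraries (adjusted p = 0.00102, log2 fold change 1.08 ± 0.13 SE). The groups did not overlap, and the call held in 15 of 15 alternatives, with log2 fold changes from 0.91 to 1.19. Tfrc, the other receptor gene, was at 25.8, 16.5 and 22.7 FPKM in mpECs and 17.6, 18.9 and 20.9 FPKM in bmECs and overlapped (adjusted p = 0.522, log2 fold change -0.15 ± 0.16 SE).

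Globin transcripts led both groups. Hbb-bs was at 19539.5, 10589 and 13009 FPKM in mpECs and 22050.5, 21057 and 16499 FPKM in bmECs (adjusted p = 0.176, log2 fold change 0.50 ± 0.24 SE, 95% confidence interval -0.053 to 1.06). Hba-a2 was at 15277, 8058 and 9009 FPKM in mpECs and 17936, 16720.3 and 11434 FPKM in bmECs (adjusted p = 0.198, log2 fold change 0.54 ± 0.27 SE). In both genes mpEC replicate 1 lay inside the range of the bmEC libraries, and mpEC replicates 2 and 3 lay below all of them. The log2 fold changes of the 4 globin genes ran from 0.32 to 0.55, and 0 passed the threshold (0 at an unadjusted p under 0.05, 0 with limma-voom).

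Alas2 was the heme synthesis gene with the largest difference, at 242, 155 and 186 FPKM in mpECs and 313, 254 and 249 FPKM in bmECs. Each bmEC library was above each mpEC library, but the adjusted p of 0.0657 did not pass (log2 fold change 0.50, 95% confidence interval 0.11 to 0.89, unadjusted p = 0.0174 in limma's test). Over the alternatives the adjusted p lay between 0.0079 and 0.184. The other 7 genes of this role had log2 fold changes from -0.26 (Ppox) to 0.18 (Fech), and limma-voom called none of them. Fech was at 238, 160.2 and 202 FPKM in mpECs and 238, 231 and 205 FPKM in bmECs, and Urod, with -0.023 (95% confidence interval -0.31 to 0.26), at 80.2, 57.4 and 64.03 FPKM in mpECs and 64.2, 64.8 and 67.5 FPKM in bmECs.

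Membrane and transcription factor genes overlapped between the regions except Kel and Ank1. Of the 31 genes, 2 lay wholly higher and 2 wholly lower in bmECs. The share of all genes without overlap was not counted in this comparison, so no weight is placed on these counts. Kel was at 13.1, 10.7 and 12.2 FPKM in mpECs and 7.62, 7.02 and 10.2 FPKM in bmECs (adjusted p = 0.0411, log2 fold change -0.50 ± 0.14 SE). The call was lost without any single library except bmEC replicate 3, and it held in 8 of 15 alternatives, with adjusted p-values from 0.0121 to 0.124. Slc4a1 was at 30.5, 23.8 and 31.6 FPKM in mpECs and 25.9, 21.4 and 31.4 FPKM in bmECs (adjusted p = 0.612, log2 fold change -0.12 ± 0.16 SE). Klf1 was at 76.1, 60.3 and 69.7 FPKM in mpECs and 51.6, 62.6 and 73.1 FPKM in bmECs (adjusted p = 0.504, log2 fold change -0.14 ± 0.14 SE), and Gata1 at 12.8, 8.35 and 10.01 FPKM in mpECs and 9.17, 8.67 and 11.5 FPKM in bmECs (adjusted p = 0.801, log2 fold change -0.068 ± 0.16 SE). Hemgn had -0.26 (adjusted p = 0.212). Ank1 was under the filter, at 0.7299, 0.585 and 0.579 FPKM in mpECs and 0.503, 0.446 and 0.534 FPKM in bmECs. Of the cytosolic enzymes, Car2 was at 911, 618 and 762 FPKM in mpECs and 818, 830.2 and 851 FPKM in bmECs (adjusted p = 0.5, log2 fold change 0.14 ± 0.14 SE), and Prdx2 had -0.23 (adjusted p = 0.185, passing in 3 of 15 alternatives).

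The summed level of the 31 genes was 40064 ± 13261 FPKM (SD, n = 3) in mpECs, while bmECs had 54885 ± 9268 FPKM. The two-sided exact permutation p was 0.20 (0.50 adjusted over the 3 comparisons), where 0.10 is the smallest that 3 against 3 allow. The difference of 14821 FPKM became 22310 FPKM without mpEC replicate 1 and 9696 FPKM without mpEC replicate 2. The neutrophil markers summed to 11642 to 27821 FPKM in mpECs and 9465 to 13896 FPKM in bmECs, with 0 of 8 called (4 lower at an unadjusted p under 0.05 and 4 with limma-voom). mpEC replicate 1 was the highest mpEC library in these as well. The B cell markers summed to 211 to 428 FPKM in mpECs and 189 to 238 FPKM in bmECs and the megakaryocyte markers to 78.7 to 336 FPKM in mpECs and 80.2 to 481 FPKM in bmECs. All 8 proliferation genes were lower in bmECs, at 216 to 308 against 124 to 148 FPKM, and 8 stress genes were at 612 to 951 against 774 to 2779.7 FPKM, with Jun and Junb higher. Markers of bone cells were lower in bmECs. The osteoblast markers summed to 230.4 to 785 FPKM in mpECs and 43.8 to 58.2 FPKM in bmECs, with 4 of 6 tested lower (Bglap, Col1a1, Dmp1 and Spp1). The chondrocyte markers summed to 12.8 to 16.4 FPKM in mpECs and 0.0116 to 0.0682 FPKM in bmECs, with both tested genes lower (Col2a1 and Col10a1), and the osteoclast markers to 40.9 to 74.9 FPKM in mpECs and 23.9 to 27.9 FPKM in bmECs, with 3 of 3 tested lower (Acp5, Ctsk and Mmp9). The 10 endothelial markers summed to 1612 to 1989 FPKM in mpECs and 2030.0 to 2153 FPKM in bmECs, with 4 higher (Cldn5, Erg, Kdr and Tek) and 3 lower (Emcn, Pecam1 and Tie1). Their part in the erythroid values was not tested.

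The 26 other heme and iron genes with a test included 6 that rose in bmECs and 1, Snx3, that fell. Steap3 rose from 4.65 ± 0.254 FPKM (mean ± SD of 3 libraries) in mpECs and reached 14.5 ± 1.98 FPKM in bmECs (adjusted p = 0.000127, log2 fold change 1.44 ± 0.11 SE). Hmox1, the oxygenase that breaks heme down, rose from 34.9 ± 1.65 to 75.3 ± 18.2 FPKM (adjusted p = 0.00255, log2 fold change 1.06 ± 0.16 SE), and Fth1, the ferritin heavy chain gene, from 1479 ± 99.98 to 2298 ± 200.3 FPKM (adjusted p = 0.00446, log2 fold change 0.63 ± 0.11 SE). Iscu, the scaffold for iron-sulfur clusters, had 0.76 (adjusted p = 0.00119). Among the 33 other erythroid genes with a test, bmECs had 4 higher and 1 lower, where 13% and 10.5% of all genes tested were called, and with limma-voom 1 was higher and 4 lower. Hbq1a, a theta globin gene, had 1.10 (adjusted p = 0.0328) and Aqp1, a water channel gene that endothelial cells also express, 0.83 (adjusted p = 0.0148). Bnip3l, which clears mitochondria from maturing red cells, had 0.50 (adjusted p = 0.0283), and Lmo2, a partner of Gata1 that endothelial cells share, had -0.52 (adjusted p = 0.0158). The remaining called gene was Gypc, a glycophorin gene named after its value was seen (0.28, adjusted p = 0.0221).

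No erythroid gene passed the threshold between the libraries labelled Yap1/Taz iΔEC and their controls. In limma's test 0 of the 31 genes were called higher and 0 lower, against 0.883% and 0.424% of the 11320 genes tested, and limma-voom on recovered reads also called 0. At an unadjusted p under 0.05, 1 was higher (Tfrc) and 1 lower (Hemgn). The median log2 fold change was -0.096, with 11 positive and 20 negative values, and that of all genes was -0.0047. Over all genes the calls were 100 higher and 48 lower, 64 and 51 after scaling to all other genes and 206 and 152 with voom. Replicate 1 of the group labelled Yap1/Taz iΔEC was the highest of its group for every gene, and without it 2 genes were called lower, Hemgn (-0.70 on the log2 scale, adjusted p = 0.0238) and Trim10 (-0.80, adjusted p = 0.0338).

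**Figure D5:**
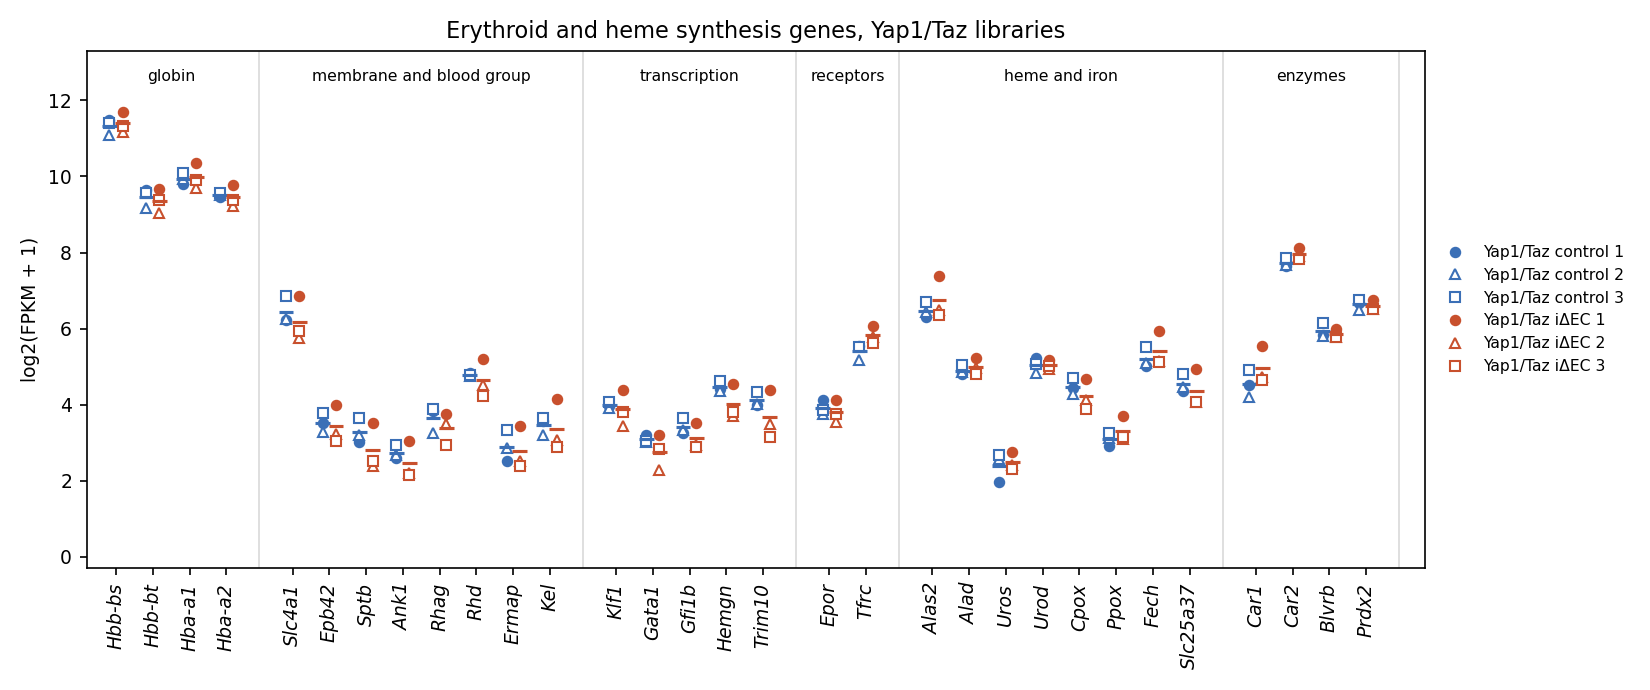
Level of each erythroid and heme synthesis gene, as log2(FPKM + 1) on the vertical axis, in the 3 Yap1/Taz control libraries (blue) and the 3 libraries labelled Yap1/Taz iΔEC (red), with genes ordered by role and a bar at each group's mean. Circles, triangles and squares are replicates 1, 2 and 3. The filled red circle is the highest red point of all 31 genes, and the groups overlap for every gene except Tfrc.

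Tfrc was at 45.3, 35.4 and 45.00 FPKM in controls and 66.6, 53.7 and 47.9 FPKM in the libraries labelled Yap1/Taz iΔEC (log2 fold change 0.41, 95% confidence interval 0.093 to 0.72, adjusted p = 0.168). It was the 1 gene of the 31 whose groups did not overlap. The share of all genes without overlap was not counted in this comparison, so no weight is placed on it. Epor was at 16.4, 12.5 and 13.6 FPKM in controls and 16.4, 10.7 and 12.5 FPKM in the labelled libraries (adjusted p = 0.779, log2 fold change -0.11 ± 0.16 SE).

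No globin gene passed the threshold. Hbb-bs was at 2852, 2166 and 2706 FPKM in controls and 3332, 2311 and 2576 FPKM in the libraries labelled Yap1/Taz iΔEC (adjusted p = 0.853, log2 fold change 0.082 ± 0.18 SE, 95% confidence interval -0.31 to 0.48). Hba-a1 was at 885, 984 and 1097 FPKM in controls and 1315, 834 and 958 FPKM in the labelled libraries (adjusted p = 0.926, log2 fold change 0.046 ± 0.17 SE). The globin log2 fold changes ran from -0.096 to 0.082, and the groups of all 4 genes overlapped.

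Membrane genes had negative log2 fold changes throughout, from -0.48 (Sptb) to -0.093 (Epb42), and 0 passed the threshold (0 at an unadjusted p under 0.05, 0 with limma-voom). Slc4a1 was at 74.3, 74.9 and 115 FPKM in controls and 115, 52.8 and 59.8 FPKM in the libraries labelled Yap1/Taz iΔEC (adjusted p = 0.649, log2 fold change -0.27 ± 0.27 SE, 95% confidence interval -0.87 to 0.33). Sptb was at 7.13, 8.16 and 11.5 FPKM in controls and 10.4, 4.25 and 4.71 FPKM in the labelled libraries (adjusted p = 0.395, log2 fold change -0.48 ± 0.27 SE). Replicate 1 was alone in reaching the level of the controls in both genes.

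Of the transcription factor genes, Hemgn had the lowest unadjusted p. Hemgn was at 20.2, 19.7 and 23.8 FPKM in controls and 22.3, 12.1 and 13.1 FPKM in the libraries labelled Yap1/Taz iΔEC (adjusted p = 0.267, log2 fold change -0.45 ± 0.19 SE). Trim10 was at 14.97, 15.2 and 19.2 FPKM in controls and 19.8, 10.2 and 7.87 FPKM in the labelled libraries (adjusted p = 0.405, log2 fold change -0.45 ± 0.26 SE), Klf1 at 14.7, 14.2 and 15.9 FPKM in controls and 19.96, 9.81 and 12.97 FPKM in the labelled libraries (adjusted p = 0.816, log2 fold change -0.12 ± 0.20 SE), and Gata1 at 8.21, 7.15 and 7.29 FPKM in controls and 8.17, 3.86 and 6.14 FPKM in the labelled libraries (adjusted p = 0.437, log2 fold change -0.32 ± 0.20 SE). In each of these genes replicates 2 and 3 lay below every control, while replicate 1 lay within or above the controls.

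The heme synthesis genes had log2 fold changes from -0.25 (Cpox) to 0.27 (Alas2). Alas2 was at 77.4, 85.2 and 103 FPKM in controls and 166, 88.97 and 80.4 FPKM in the libraries labelled Yap1/Taz iΔEC (adjusted p = 0.6, log2 fold change 0.27 ± 0.24 SE, 95% confidence interval -0.26 to 0.79). Fech was at 31.4, 33.2 and 44.6 FPKM in controls and 60.5, 34.6 and 34.04 FPKM in the labelled libraries (adjusted p = 0.674, log2 fold change 0.20 ± 0.21 SE). In both genes replicate 1 was above the other 5 libraries. Of the cytosolic enzymes, Car1 was at 21.9, 17.5 and 29.1 FPKM in controls and 45.3, 25.5 and 24.3 FPKM in the labelled libraries (adjusted p = 0.379, log2 fold change 0.43 ± 0.24 SE), Car2 had 0.21 (adjusted p = 0.356) and Prdx2 -0.047 (95% confidence interval -0.29 to 0.20).

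The summed level was 5927 ± 555 FPKM (SD, n = 3) in the Yap1/Taz controls and 6128 ± 1280.3 FPKM in the libraries labelled Yap1/Taz iΔEC, with an exact permutation p of 0.90 (0.90 adjusted over the 3 comparisons). The difference of 201.8 FPKM turned to -519.4 without replicate 1 of the group labelled Yap1/Taz iΔEC and to -109.5 without control replicate 2. The neutrophil markers summed to 2086 to 2738 FPKM in controls and 1654 to 3872 FPKM in the labelled libraries, and replicate 1 of the group labelled Yap1/Taz iΔEC was again the highest of its group. The B cell markers summed to 288 to 343 FPKM in controls and 239 to 242 FPKM in the labelled libraries, with 0 of 8 called (8 lower at an unadjusted p under 0.05, 1 with limma-voom). The endothelial markers summed to 617 to 656 FPKM in controls and 789.6 to 903 FPKM in the labelled libraries, with 1 of 10 higher (Cldn5, with 8 higher at an unadjusted p under 0.05, 3 with limma-voom). Of the osteoblast markers 2 of 5 tested were lower (Bglap and Col1a1), and of the megakaryocyte markers 1 of 8 was higher (Ppbp). Of the 35 other erythroid genes tested 0 were called (2 higher and 3 lower at an unadjusted p under 0.05, 1 higher with limma-voom), and of the 26 other heme and iron genes also 0 (2 higher and 5 lower unadjusted, 0 with limma-voom).

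Ratios between erythroid genes within a library, which do not depend on the scaling of the library, are given as a description. Hbb-bs over Alas2 was 80.8, 68.4 and 70.04 in mpECs and 70.5, 82.8 and 66.3 in bmECs, so the 6 libraries overlapped. In the Lats2 controls it was 9.58 and 8.12 and in Lats2 iΔEC 13.1 and 24.8, so Alas2 was lower relative to globin in both Lats2 iΔEC libraries. In the Yap1/Taz controls it was 36.8, 25.4 and 26.3 and in the libraries labelled Yap1/Taz iΔEC 20.1, 25.97 and 32.03. Klf1 over Alas2 was 0.315, 0.3897 and 0.375 in mpECs and 0.165, 0.246 and 0.294 in bmECs, so every bmEC library had less Klf1 for its Alas2. It was 0.112 and 0.152 in the Lats2 controls and 0.0827 and 0.0333 in Lats2 iΔEC, the last from 1 Klf1 read. The Yap1/Taz groups overlapped, at 0.1898, 0.167 and 0.155 in controls and 0.121, 0.1103 and 0.161 in the labelled libraries. Alpha over beta globin and Hba-a1 over Hba-a2 overlapped between the groups of every comparison. Alas2 over Slc4a1 was 1.04, 1.14 and 0.895 in the Yap1/Taz controls and 1.44, 1.69 and 1.34 in the libraries labelled Yap1/Taz iΔEC, which did not overlap, while the groups overlapped in the other 2 comparisons. Hbb-bs over Hbb-bt was 2.86 and 2.78 in the Lats2 controls and 3.54 and 3.095 in Lats2 iΔEC, and 4.09, 4.11 and 4.15 in mpECs against 4.61, 4.94 and 4.496 in bmECs. In the Yap1/Taz controls it was 3.603, 3.75 and 3.61 and in the libraries labelled Yap1/Taz iΔEC 4.13, 4.395 and 3.896, so the groups did not overlap in any comparison. This pair shares most of its sequence, and its ratio depends on how the authors' counting divided such reads.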

How the data were processed

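FPKM values were measured by RNA-seq in 16 libraries of sorted bone ECs, and the authors deposited them as FPKM per gene in 2 tables and 6 single-library files. Per the labels and the study's methods, total RNA was made into TruSeq Stranded Total RNA libraries and sequenced on a MiSeq, reads were mapped to GRCm38 (mm10) with TopHat and counted with HTSeq 0.6.1, and DESeq2 served the authors' own tests on counts, which are not used here. The step from counts to FPKM and the strand setting are not given in the sources used here. The values are already scaled between libraries, since median ratio factors were 1.00 to 1.01.

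Reads were recovered from FPKM times exon length in units of 1 read. Of low values (up to 20 reads), 59.6% to 69.97% came out whole to within 0.02 reads, against 4% by chance. The step from FPKM to reads used GENCODE M21 exon lengths. FPKM were turned to log2(FPKM + 1), and genes whose mean over a comparison reached 1 FPKM were tested with limma 3.58.1 (R 4.3.3), with 1 term for the group and a mean-variance trend, with two-sided p-values adjusted by Benjamini-Hochberg over all genes tested. A gene is called at an adjusted p under 0.05, and fold changes on this scale understate those of low genes. Groups came from the labels. Summed levels were compared with exact permutation tests. Python 3.11.15, pandas 2.3.3, numpy 2.4.6, scipy 1.17.1 and matplotlib 3.10.9 were used. Replicates of a group differed by more than counting noise in every pair (median squared difference 2.35 to 7.91 times that of counting).

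The 31 genes found are described by role, from other lists up to 4 called genes with the largest change are named (2 such genes are not reported here), and marker lists are given by counts and sums. The genes, lists and naming rule were chosen with earlier results of these data known. Alternatives were a pseudocount of 0.1, no filter, a filter at 5 FPKM, quantile normalization, median ratio scaling, scaling to the FPKM of all genes outside the set, no trend, an adjusted p under 0.01 with an absolute log2 fold change over 0.5, omission of each library and a replicate block, and, added after seeing the data, limma-voom on recovered reads. Scaling to genes outside the set raised the values while the pseudocount and filter stayed at 1, so it changed both in effect. The procedure was also run on simulated data with independent normal noise for each gene. Those data hold no library in which many genes shift together, so they do not speak to that case.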

Additional observations from a re-analysis of the deposited data

How the results depend on the processing

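Counts of called genes moved with the processing, while the directions of called genes did not turn under any alternative. In bmECs against mpECs, the 1 higher gene became 3 with the replicate block and 1 to 6 when single libraries were left out. The 1 lower gene became 0 without the filter or the trend and under the stricter threshold, 2 with quantile normalization or scaling to all other genes, 3 with limma-voom, and 0 to 1 when single libraries were left out. For Yap1/Taz, 0 genes were lower, and 0 to 2 when single libraries were left out. In Lats2 iΔEC, the 20 lower genes became 9 without the filter, where 19822 genes were tested, and 2 under the stricter threshold. They were 14 to 26 in the other alternatives that kept all libraries, and 0 to 23 when single libraries were left out. A pair reduced to 1 library is assumed to vary like the other group, which limits what its omission shows.

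The replicate numbers were not taken to pair the libraries, since the labels do not tie them to animals or days and not every correlation passed 0.1. In mpECs and bmECs all 3 were positive, so a pairing there is not settled. Deviations of same-numbered libraries from their group means correlated at 0.31, 0.088 and 0.10 in mpECs and bmECs, at -0.18, -0.12 and -0.16 for Yap1/Taz and at 0.065 for Lats2. In no comparison did every library correlate best with its own number where 3 pairs existed. With the replicate block, 3 genes were higher and 1 lower in bmECs, 0 and 0 were called for Yap1/Taz, and 0 were higher and 25 lower in Lats2 iΔEC.

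Depth limits the low genes. In a gene of 2000 bases 1 read was 0.0405 to 0.0608 FPKM in mpECs and bmECs, 0.0727 to 0.107 FPKM for Yap1/Taz and 0.0841 to 0.133 FPKM for Lats2. Ank1 passed the filter in the Yap1/Taz libraries only.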
